A study of Mus musculus with 24 samples.

Results

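The libraries described here are the 6 RNA-seq libraries from the cerebellum of GFP-PR28 heterozygous mice, 3 made at 2 months of age (mice 2, 4 and 6) and 3 at 5 months of age (mice 8, 10 and 12). They were chosen by the genotype, tissue and age in the sample labels, and they make up 6 of the 24 libraries of the series. The series was made to study a mouse line that expresses poly-PR, a proline-arginine dipeptide repeat protein that can be translated from the expanded C9orf72 repeat in amyotrophic lateral sclerosis and frontotemporal dementia. The other 18 libraries come from control cerebellum at the same ages and from the cortex and spinal cord at 6 months. Heterozygous mice carried 1 GFP-PR28 flox/+ allele, placed in the Rosa26 locus, together with Thy1-Cre, whose Thy1 promoter directs expression to neurons. Control mice, labelled WT, carried GFP-PR28 flox/+ without Cre. All animals had a C57BL/6 background, and the study used male mice unless it said otherwise. Each library came from 1 mouse, the mice sampled at 2 and at 5 months were different animals, and the labels give no batch or date.

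The cerebellar cortex is built from Purkinje cells, its output neurons, from very numerous small granule cells that excite them, and from inhibitory interneurons, all held among Bergmann glia, other astrocytes, oligodendrocytes and microglia. Between early and mature adulthood myelin synthesis slows, glial precursors become fewer, and the expression of genes induced by neuronal activity changes with the state of the animal at sampling. Microglia, the resident macrophages of the brain, respond to damaged neurons with a program of lysosomal, complement and lipid genes, in which the receptor Trem2 takes part.

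The number of counts on genes was 15858875, 12835400 and 15415448 in mice 2, 4 and 6, and 13980415, 15278223 and 16327811 in mice 8, 10 and 12. Levels are given as counts scaled to library size (CPM), with library sizes scaled by edgeR's TMM method over the 12 cerebellum libraries. Defining markers of the cerebellum were abundant in every heterozygous library. The granule cell gene Gabra6, a GABA-A receptor subunit, lay at 772, 810.3 and 795 CPM at 2 months and 702, 634 and 568 CPM at 5 months, and Calb1, the calcium buffer calbindin of Purkinje cells, at 1162, 1133 and 1136 CPM and 1188, 1184 and 1116 CPM. Of 13 markers of neurons found outside the cerebellum, 10 were under the filter on low counts. Xist was under 1 CPM in all 6 libraries, and Ddx3y on the Y chromosome lay at 108, 106 and 98.9 CPM and 106, 104 and 107 CPM, as in males. On a principal component analysis of the 6 libraries, the component with the most variance (33.9%) placed the 3 mice of 2 months between -18.7 and -9.35 and the 3 mice of 5 months between 7.07 and 27.7. The ages did not overlap on it, and mouse 12 lay farthest from the younger mice. Among the control libraries, that of control mouse 1 (2 months) stood apart from its group: across genes, its log2 distance to the 12-library average had an SD of 0.478, where the other 11 had an SD between 0.218 and 0.299, and that distance followed the GC content of the genes (Spearman's rho = 0.408 across genes, which are not independent replicates). Most edgeR results that use control libraries are therefore given with and without it. Where a gene shares its position with another, its level is uncertain, whichever strand the other lies on, and the strand setting of the counting is not given in the sources used here. Such genes are, among others, Ctss, B2m, Dusp1, Ermn, Gpr17, Camk4, Pclo and Tnc.

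With edgeR's quasi-likelihood test and Benjamini-Hochberg adjustment, 435 genes were called higher and 408 lower at 5 months among 16423 tested genes, which is 2.65% and 2.48% of them. Calls required an adjusted p below 0.05 together with a log2 fold change of more than 0.2 in either direction. Most changes were small: the median size of the log2 fold change was 0.41 among genes called higher and 0.31 among those called lower, and 43 and 24 of them exceeded 1. Before adjustment, 3282 genes had p below 0.05. The 3 values at one age lay fully apart from the 3 at the other for 428 of the 435 and 406 of the 408 called genes; of all tested genes, 11.8% lay apart with higher values at 5 months and 12.5% with lower values. DESeq2 called 268 genes higher and 320 lower, of which 248 and 290 were among the genes above. In a fit that took all 12 cerebellum libraries the counts fell to 74 and 61, and with control mouse 1 left out of that fit, an alternative chosen after seeing the data, they were 460 and 486. Without mouse 6 they were 159 and 151, without mouse 2 they were 195 and 205, and without mouse 8 they were 649 and 617. Every gene called with all 6 libraries kept its direction when any 1 of the 6 was left out, although its call could be lost.

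**Figure D1:**
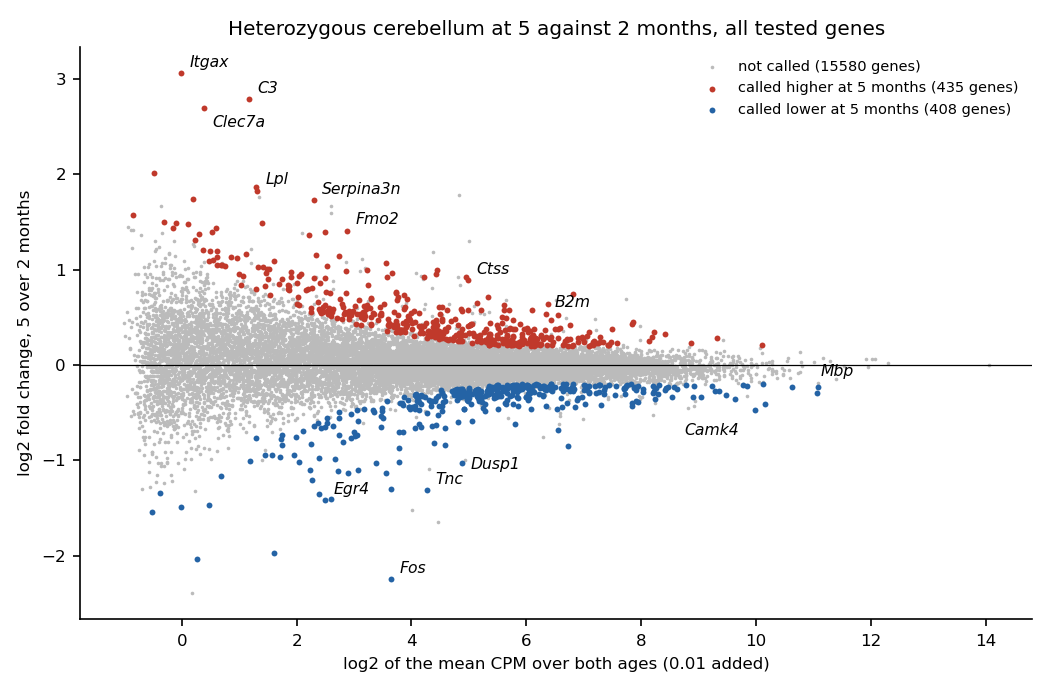
Log2 fold change between 5 and 2 months against the log2 mean CPM for the 16423 genes tested in heterozygous cerebellum. Red points are the 435 genes called higher and blue points the 408 called lower at 5 months. The largest increases (Itgax, C3, Clec7a) are in genes of low abundance, which passed the filter on low counts only because of their counts at 5 months. The abundant genes Camk4 and Mbp fell by less than 0.5 on the log2 scale.

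The genes with the largest changes were mostly of low abundance. Among called genes whose ages did not overlap and whose mean was at least 1 CPM, the 10 largest increases were those of C3, Clec7a, Tcap, Lpl, 4930578G10Rik, Serpina3n, Gm10705, Parvg, Gm14164 and Fmo2, from 1.41 to 2.79 on the log2 scale. Of these, C3 (central complement component), Clec7a (a pattern recognition receptor of activated microglia), Lpl (lipoprotein lipase) and Serpina3n (a protease inhibitor of reactive astrocytes) are known from glial responses, Tcap encodes a sarcomere protein and Fmo2 a monooxygenase. Which cells made these RNAs was not measured. The 10 largest decreases were those of Fos, Gm21887, Gm21685, Slc38a5, Egr4, Fbxl22, Npas4, Tnc, Spry4 and Tm6sf2, from -1.21 to -2.25. Fos, Egr4 and Npas4 are immediate early transcription factors, Slc38a5 is an amino acid transporter, Tnc the matrix protein tenascin C and Spry4 a feedback inhibitor of growth factor signalling. Gm21887 and Gm21685 are predicted genes whose reads could be split with near-identical copies, so their values are uncertain. 4930578G10Rik, Gm14164 and Fbxl22 overlap other genes. C3, Clec7a, 4930578G10Rik, Parvg and Gm14164 passed the filter on low counts only because of their counts at 5 months. Gm21887 and Slc38a5 passed it only because of their counts at 2 months. The direction of these genes is therefore partly set by the filter. Without mouse 6 the calls of Tcap, 4930578G10Rik, Fmo2, Gm21887, Slc38a5, Egr4, Fbxl22, Tnc and Spry4 were lost, without mouse 2 those of Parvg, Gm14164, Fmo2, Gm21887, Fbxl22, Tnc and Spry4, and without mouse 12 those of Parvg, Gm14164, Fmo2 and Tnc. Mouse 4 (Parvg, Fmo2 and Spry4), mouse 8 (Tnc) and mouse 10 (4930578G10Rik, Fbxl22 and Spry4) also carried calls in this sense.

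Genes of microglia were higher at 5 months in part. Of 14 microglia markers, all tested, 7 were called higher, among them Csf1r, C1qb, C1qc, Trem2, Cd68 and Ctss, and 0 lower, all 14 had a log2 fold change above 0, and their median was 0.51, against 0.0044 over all tested genes. The share called higher among all tested genes was 2.65%. Ctss, the lysosomal protease cathepsin S, lay at 18.5, 24.6 and 23.7 CPM at 2 months and 41.5, 35.2 and 46.5 CPM at 5 months. All 3 older mice were above all 3 younger ones, and mouse 12 was highest. The change was 0.89 ± 0.12 on the log2 scale (± standard error, adjusted p = 0.0026). Trem2 lay between 3.24 and 3.43 CPM in the younger mice and at 5.90, 4.48 and 6.97 CPM in the older ones. Its change of 0.80 ± 0.19 (adjusted p = 0.0117) and that of the lysosomal protein Cd68 (0.71 ± 0.20, adjusted p = 0.0301) lost their calls without mouse 2, 6 or 12, at adjusted p from 0.058 to 0.156. The complement gene C1qc changed by 0.76 ± 0.16 (adjusted p = 0.0132; 0.0574 without mouse 6). C1qa was at 13.7, 13 and 11.7 CPM and 24.8, 16 and 30.5 CPM, apart by age with a wide spread among the older mice, and was not called (adjusted p = 0.156; 1.37e-05 without mouse 10 and 0.0348 without mouse 12). Aif1 (adjusted p = 0.569) and Cx3cr1 (adjusted p = 0.232), also of this list, overlapped between ages. Aif1 had only 7, 11 and 7 counts at 2 months and 8, 14 and 15 counts at 5 months. Summed over the 14 markers, the level was 185, 198 and 178 CPM at 2 months and 269, 230.3 and 299 CPM at 5 months. It rose in all 3 older mice, least in mouse 10. The number of markers called was 4 without mouse 2, 2 without mouse 6 and between 6 and 9 without any other mouse, and it was 3 in the fit of all 12 libraries and 9 with control mouse 1 left out of that fit. In bulk RNA, more cells of a type and more RNA per cell cannot be told apart, and likewise fewer cells and less RNA per cell.

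Genes that mark an activated state of microglia were also higher in part. Of 14 listed, 13 were tested and 8 were called higher (Clec7a, Itgax, Lpl, Spp1, Gpnmb, Ccl6, Lgals3 and Ctsd), with a median of 0.43, where 2.65% of all tested genes were called higher. Clec7a, at chr6:129461591-129472779 on the minus strand (GRCm38), had 7, 6 and 2 counts in the younger mice and 39, 23 and 42 counts in the older ones. Scaled for library size, its pooled level was 6.61 times as high at 5 months (95% exact counting interval 3.83 to 12.2, which covers counting error only). Itgax, the integrin CD11c, had 1, 5 and 3 counts and 31, 11 and 40 counts, a ratio of 8.69 (4.36 to 19.7). In both genes every older mouse was above every younger one, with mouse 10 the lowest of the older mice. Both passed the filter on low counts only because of their counts at 5 months, so their direction is partly set by it. Lpl was at 0.946, 1.31 and 1.03 CPM and 4.00, 2.27 and 5.30 CPM (1.83 ± 0.30, adjusted p = 0.000847). Spp1, osteopontin, which some neurons also express, was at 26.7, 26.2 and 31.4 CPM and 37.2, 35.2 and 41.2 CPM (0.43 ± 0.081, adjusted p = 0.00215). Apoe, the most abundant gene of the list by counts and one that astrocytes also make, was not called, and its level was 1055, 978 and 981 CPM and 1139, 1080.0 and 1176 CPM. Without mouse 2 or without mouse 6, 5 members were called, with DESeq2 4, in the fit of all 12 libraries 3, and with control mouse 1 left out of that fit 8.

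Complement and antigen presentation genes were higher in part. Of 12 such genes, 6 were called higher and 0 lower (H2-K1, B2m, Psmb8, H2-Ab1, C3 and Serping1), all 12 changes were above 0, and the median was 0.55. Among all tested genes 2.65% were called higher. C3, at chr17:57203970-57228136 on the minus strand, was at 0.504, 0.540 and 0.647 CPM at 2 months and 3.44, 2.46 and 5.84 CPM at 5 months. The lowest older mouse (mouse 10) was well above the highest younger one, and the change was 2.79 ± 0.35 (adjusted p = 7.72e-05). C3 passed the filter on low counts only because of its counts at 5 months. B2m, the light chain of class I major histocompatibility molecules, at chr2:122147686-122153083 on the plus strand, was at 63.4, 72.1 and 63.0 CPM and 95.5, 90.4 and 102 CPM. The groups were separate with little spread inside each, 66.1 ± 5.18 CPM at 2 months and 95.8 ± 5.55 CPM at 5 months (mean ± SD, n = 3), and the change was 0.54 ± 0.059 (adjusted p = 7.13e-06). H2-K1, a class I heavy chain, was at 18.1, 18.8 and 18.2 CPM and 25.3, 23.7 and 30.5 CPM (0.53 ± 0.093, adjusted p = 0.000901), and Serping1, the inhibitor of the C1 complement protease, at 17.7, 19.7 and 16 CPM and 23.1, 27.1 and 30.7 CPM (0.61 ± 0.10, adjusted p = 0.00098). In each of these genes the ages did not overlap. Without mouse 4, 6 or 12, 4 members were called.

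The 300 bases around the start sites of B2m and Ctss are shown because both genes rose and both windows hold a letter pattern that interferon regulatory factors are known to bind. Capitals mark GAAANNGAAA, searched on both strands, and, in Ctss, GAGGAAGT, a pattern bound by the macrophage factor PU.1, which lies on the opposite strand and is read there from right to left as its complement. The pattern begins 139 bases before the start site in B2m and 21 bases before it in Ctss, and neither overlaps the PU.1 pattern, which begins 2 bases before the start site of Ctss. The sequences are RefSeq promoters on GRCm38.p6, from 250 bases before to 50 after the start, at chr2:122147437-122147736, plus strand, and chr3:95526536-95526835, plus strand.
B2m: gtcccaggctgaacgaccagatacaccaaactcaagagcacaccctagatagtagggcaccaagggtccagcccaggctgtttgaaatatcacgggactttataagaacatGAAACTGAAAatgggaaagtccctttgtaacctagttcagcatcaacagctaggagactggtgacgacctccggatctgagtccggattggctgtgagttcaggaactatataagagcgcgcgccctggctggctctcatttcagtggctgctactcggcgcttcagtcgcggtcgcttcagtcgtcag
Ctss: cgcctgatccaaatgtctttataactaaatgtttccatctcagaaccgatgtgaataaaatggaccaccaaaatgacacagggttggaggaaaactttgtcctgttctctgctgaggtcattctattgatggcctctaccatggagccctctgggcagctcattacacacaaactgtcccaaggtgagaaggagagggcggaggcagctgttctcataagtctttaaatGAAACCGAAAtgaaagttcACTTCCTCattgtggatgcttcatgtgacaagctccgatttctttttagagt
Of all 32851 promoters of this length, 3.44% hold GAAANNGAAA and 3.2% hold GAGGAAGT. Promoters were matched by symbol for 11306 of the 16412 gene symbols tested, for 314 of the 435 genes called higher and for 296 of the 408 called lower. At least 1 promoter with GAAANNGAAA was found for 3.48% of the matched tested genes, 6.69% of those called higher (21 genes) and 4.73% of those called lower (14 genes). For GAGGAAGT the shares were 3.33%, 4.14% and 3.04%. A match describes letters in the window and is no evidence that a factor binds there.

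Interferon response genes gave no call, and mouse 12 stood above the other mice. Of 12 such genes, 0 were called with edgeR and 0 with DESeq2 (2 higher with no filter on low counts, and 1 higher without mouse 10), 11 had changes above 0, and the median was 0.81. Their summed level was 88.0, 113 and 74.6 CPM at 2 months and 105, 81.9 and 244 CPM at 5 months. Mouse 12 alone was above the younger mice, while mice 8 and 10 lay within their range. For 0 of the 12 genes were the ages apart, where 11.8% of all tested genes lay apart with higher values at 5 months and 12.5% with lower values. Mouse 12 was also the highest for C3, Ctss, B2m and H2-K1, but for these mice 8 and 10 were above the younger mice as well.

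Astrocyte genes moved little as a group. Of 11 markers of astrocytes and Bergmann glia, 1 was called higher (Aldh1l1) and 1 lower (Fabp7), with a median of -0.045. Among all tested genes the shares were 2.65% and 2.48%. Gfap, the intermediate filament protein that accumulates in reactive astrocytes, was at 145, 190.5 and 152 CPM at 2 months and 266, 197 and 321 CPM at 5 months. All older mice were above all younger ones, but mouse 10 was close to mouse 4, and the change of 0.69 ± 0.24 did not pass the test (adjusted p = 0.222). Over all alternatives the adjusted p of Gfap ranged from 0.00478 to 0.49, and 0 of the 6 fits that left out 1 mouse called it. With non-robust dispersions 2 markers of the list were called higher. Aldh1l1, a folate enzyme of astrocytes, changed by 0.28 ± 0.071 (adjusted p = 0.0271), a call that was lost without mouse 2, 4, 6 or 12 (adjusted p from 0.104 to 0.122) and in the fit of all 12 libraries, but not with control mouse 1 left out of that fit. Fabp7, a fatty acid binding protein of Bergmann glia and immature astrocytes, was at 28.7, 28.0 and 35.3 CPM and 17.6, 20.9 and 13.3 CPM, lower in every older mouse (-0.83 ± 0.16, adjusted p = 0.0253; 0.0698 without mouse 2 and 0.0977 without mouse 8). Its call was also lost with the length and GC offset and in the fit of all 12 libraries, but not with control mouse 1 left out of that fit. Serpina3n, which reactive astrocytes can make, was at 2.84, 2.47 and 1.55 CPM and 7.02, 5.51 and 10.1 CPM (1.73 ± 0.25, adjusted p = 0.00081).

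Immediate early genes, which neurons transcribe within minutes of strong activity, fell in part. Of 14 listed, 12 were tested, 6 were called lower (Fos, Egr4, Arc, Npas4, Ier2 and Dusp1) and 0 higher, all 12 changes were below 0, and the median was -0.82. Among all tested genes 2.48% were called lower. Fos, at chr12:85473890-85477273 on the plus strand, was at 19.4, 21.3 and 21.4 CPM at 2 months and 6.39, 2.60 and 4.17 CPM at 5 months. The highest older mouse (mouse 8) was far below the lowest younger one, and the change was -2.25 ± 0.23 (adjusted p = 0.00086). Dusp1, a phosphatase that switches off MAP kinases, was at 38.1, 41.4 and 38.9 CPM and 21.9, 15.8 and 20.4 CPM (-1.02 ± 0.093, adjusted p = 1.39e-06). Npas4, a factor induced by calcium entry in neurons, was at 8.20, 7.72 and 6.54 CPM and 3.86, 2.92 and 2.08 CPM (-1.35 ± 0.19, adjusted p = 0.000133), and Egr4 at 9.58, 6.10 and 8.87 CPM and 4.28, 3.24 and 1.85 CPM (-1.41 ± 0.26, adjusted p = 0.00721; 0.0528 without mouse 6). In all of these the ages were fully apart, with the younger mice higher. Summed over the list, the level was 236, 213 and 221 CPM and 145, 127 and 124 CPM. Without mouse 6, 3 members were called, and 4 without mouse 2, 4 or 10. Spry4, which is induced by the same MAP kinase signalling, was at 17.6, 17.5 and 18.1 CPM and 10.2, 7.27 and 4.41 CPM (-1.30 ± 0.25, adjusted p = 0.034), a call lost without mouse 2, 4, 6 or 10 (adjusted p from 0.0905 to 0.147).

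The promoter of Dusp1 is shown because the gene had the smallest adjusted p of the immediate early genes and its window holds a full cyclic AMP response element, TGACGTCA, in capitals, which begins 143 bases before the start site. The capitals further on mark the E-box CACGTG, 126 bases before the start site, and the patterns do not overlap. The sequence is the RefSeq promoter on GRCm38.p6 at chr17:26508423-26508722, minus strand.
Dusp1: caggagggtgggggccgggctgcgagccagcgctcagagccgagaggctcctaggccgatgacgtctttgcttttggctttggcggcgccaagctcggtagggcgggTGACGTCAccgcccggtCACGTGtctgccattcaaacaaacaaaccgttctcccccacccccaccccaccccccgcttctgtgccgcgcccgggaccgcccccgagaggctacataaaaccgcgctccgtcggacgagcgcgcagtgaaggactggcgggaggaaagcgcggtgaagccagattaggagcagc
TGACGTCA occurs in 1.79% of all 32851 promoters. At least 1 promoter with it was found for 3.46% of the matched tested genes, 1.27% of those called higher (4 genes) and 7.09% of those called lower (21 genes). Of 10 immediate early genes with a promoter in the table, 2 had a match. As above, a match is a description of the letters only.

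Myelin genes were lower at 5 months in part. Of 16 genes of mature oligodendrocytes and myelin, 9 were called lower, among them Mbp, Mog, Mobp, Mag, Mal, Cldn11, Ermn and Ugt8a, and 1 higher (Il33, an alarmin cytokine of oligodendrocytes, named after its value was seen), with a median of -0.27. The shares among all tested genes were 2.48% lower and 2.65% higher. Mbp, myelin basic protein, was at 2313, 2373 and 2329 CPM at 2 months and 1925, 1925 and 1884 CPM at 5 months. The spread within each age was small, 2338 ± 30.9 CPM at 2 months and 1911 ± 24.1 CPM at 5 months (mean ± SD, n = 3), and the change was -0.29 ± 0.035 (adjusted p = 1.71e-05). Ugt8a, the enzyme that makes galactosylceramide, a main myelin lipid, was at 64.1, 68.3 and 70.3 CPM and 45.3, 48.1 and 38.4 CPM (-0.62 ± 0.070, adjusted p = 1.71e-05), and Ermn, a cytoskeletal protein of late oligodendrocytes, at 76.8, 79.1 and 79.5 CPM and 60.8, 57.8 and 52.5 CPM (-0.46 ± 0.057, adjusted p = 2.25e-05). For all of these every younger mouse was above every older one. The number of members called lower was 8 or 9 whichever of the 6 mice was left out, 2 in the fit of all 12 libraries, and 9 with control mouse 1 left out of that fit.

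Genes of earlier stages of the lineage also fell in part. Of 10 markers of oligodendrocyte precursors and newly formed oligodendrocytes, 3 were called lower (Gpr17, Enpp6 and Tmem163) and 0 higher, with a median of -0.19. Calls of lower genes made up 2.48% of all tested genes. Gpr17, a receptor of committed precursors, was at 27.1, 24.9 and 26.5 CPM and 21.1, 14.9 and 14.9 CPM, highest among the older mice in mouse 8 (-0.63 ± 0.11, adjusted p = 0.00226). Enpp6, which marks newly formed oligodendrocytes, was at 7.12, 6.25 and 7.12 CPM and 4.07, 5.12 and 4.77 CPM (-0.55 ± 0.15, adjusted p = 0.0338), and its call remained only with mouse 10 as the library left out (adjusted p between 0.0515 and 0.165 without any other mouse). Pdgfra, which marks precursors at rest and in division, was at 25.3, 27.2 and 24.6 CPM and 30.1, 29.1 and 29.7 CPM, higher in each older mouse but not called (adjusted p = 0.101). Without mouse 2, 4, 6, 8 or 12, 2 members were called, in the fit of all 12 libraries 1, and with control mouse 1 left out of that fit 3.

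Of 10 Purkinje cell markers, 0 were called with edgeR and 0 with DESeq2 (without mouse 4, 1 was called lower, and 2 without mouse 10 or with no fold change threshold), the median was 0.022, and the summed level was 9481, 9136 and 9305 CPM at 2 months and 8937, 9651 and 9324 CPM at 5 months. The sums overlapped between ages. Pcp2, a G protein modulator specific to Purkinje and retinal bipolar cells, was at 240.5, 245 and 226 CPM and 237, 250.2 and 250.4 CPM (0.055 ± 0.042, adjusted p = 0.507), and Calb1 changed by 0.026 ± 0.037 (adjusted p = 0.766). Markers of inhibitory interneurons gave 0 calls of 9 with edgeR and 0 with DESeq2 (1 higher without mouse 10, with no filter on low counts, or in the 12-library fit with control mouse 1 left out, and 2 with no fold change threshold), with a median of 0.0013; Kit, the stem cell factor receptor of molecular layer interneurons, was higher in every older mouse but by only 0.16 ± 0.038, under the threshold of size.

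Granule cell genes fell in part. Of 12 granule cell markers 3 were called lower (Gabra6, Zic1 and Calb2) and 0 higher, with a median of -0.13. The share called lower among all tested genes was 2.48%. Calb2, the calcium buffer calretinin, was at 328, 324 and 323 CPM at 2 months and 257, 285 and 249.8 CPM at 5 months, with the ages apart (-0.30 ± 0.045, adjusted p = 0.000251). Gabra6 fell by 0.32 on the log2 scale (adjusted p = 0.0219; 0.0681 without mouse 4, 0.0732 without mouse 6 and 0.122 without mouse 10). Zic1, a transcription factor of granule cells, changed by -0.20 ± 0.044 (adjusted p = 0.00832), close to the threshold of size, and was called without mouse 6, 8 or 10 but not without mouse 2, 4 or 12. Neurod1, a differentiation factor that granule cells keep in the adult, was at 572, 548 and 539.9 CPM and 476, 397 and 360.3 CPM. Every older mouse was below every younger one, but the test did not call it (adjusted p = 0.11; 8.85e-08 without mouse 8 and 0.0251 without mouse 12). The list had 1 member called lower without mouse 4, 2 without mouse 2 or 6, and 3 or 4 without any other mouse, while 1 was called higher without mouse 12. In the fit of all 12 libraries 0 were called, and with control mouse 1 left out of that fit 4 were called lower.

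Among genes of neuronal signalling, a change was called in Camk4, the calcium and calmodulin dependent kinase IV, which granule cells express strongly. Camk4 was at 1148, 1181 and 1193 CPM at 2 months and 822, 896 and 822 CPM at 5 months. The groups were far apart against their spread, 1174 ± 23.2 CPM at 2 months and 847 ± 42.8 CPM at 5 months (mean ± SD, n = 3), and the change was -0.47 ± 0.039 (adjusted p = 4.3e-07). Of 35 genes of the transmitter release machinery, 4 were called lower (Rims1, Pclo, Erc1 and Sv2c) and 0 higher, with a median of -0.065. Calls of lower genes made up 2.48% of all tested genes. Rims1, Pclo and Erc1 are scaffolds of the presynaptic active zone, and Sv2c is a synaptic vesicle glycoprotein. Pclo was at 582, 578 and 606 CPM and 471, 491 and 439 CPM (-0.33 ± 0.042, adjusted p = 2.9e-05), Rims1 at 282, 279 and 295 CPM and 232, 249 and 225 CPM (-0.28 ± 0.043, adjusted p = 0.00035), Sv2c at 86.4, 79.9 and 94.2 CPM and 67.8, 70.1 and 69.8 CPM (-0.33 ± 0.057, adjusted p = 0.000888) and Erc1 at 139, 139 and 139.5 CPM and 108, 123 and 117 CPM (-0.26 ± 0.048, adjusted p = 0.00199). In these 4 genes every older mouse was below every younger one. Without mouse 4, 7 members were called, without mouse 8, 6, and without mouse 10, 10; 7 were called with no filter or with non-robust dispersions, 0 in the fit of all 12 libraries, and 6 with control mouse 1 left out of that fit. Of the 35 members, 13 lay fully apart with lower values at 5 months and 3 with higher values. Over all tested genes the shares were 12.5% and 11.8%.

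Of 22 glutamate receptor genes, 1 was called higher (Grin2d, 0.28 ± 0.079, adjusted p = 0.0329) and 1 lower (Grin2a, -0.24 ± 0.050, adjusted p = 0.00484), both NMDA receptor subunits, with a list median of 0.00088. The shares called among all tested genes were 2.65% higher and 2.48% lower. Grin2a was at 101, 106 and 108 CPM and 86.1, 94.1 and 86.4 CPM, and lost its call without mouse 6 (adjusted p = 0.0587); the call of Grin2d remained only when mouse 8 was the library left out. Of 18 GABA and glycine receptor genes tested, only Gabra6 was called (median -0.042). The 14 genes that the study names for the cerebellum come from its own work on this mouse line, some of them from libraries of this series, so their direction is not independent evidence. Of them Cd68 and Trem2 were called higher and Camk4 and Grin2a lower with age. Unc13a, a vesicle priming factor, was at 289.5, 265 and 313 CPM and 232, 252 and 203 CPM (-0.33 ± 0.10, adjusted p = 0.119; called without mouse 4, 10 or 12), and Rims3 at 297, 265 and 292 CPM and 199, 258 and 208 CPM (-0.36 ± 0.11, adjusted p = 0.173; called without mouse 10). In both the ages were apart, with mouse 10 the highest of the older mice. Over all alternatives the adjusted p of Unc13a ranged from 1.42e-09 to 0.259, so at least 1 fit other than those that left out a mouse also called it. Kcnj9, Syt2 and Doc2b changed by -0.11, -0.045 and 0.095, and Chac1 and Atf5, which respond to amino acid and endoplasmic reticulum stress, by 0.038 and 0.083, none of them called.

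**Figure D2:**
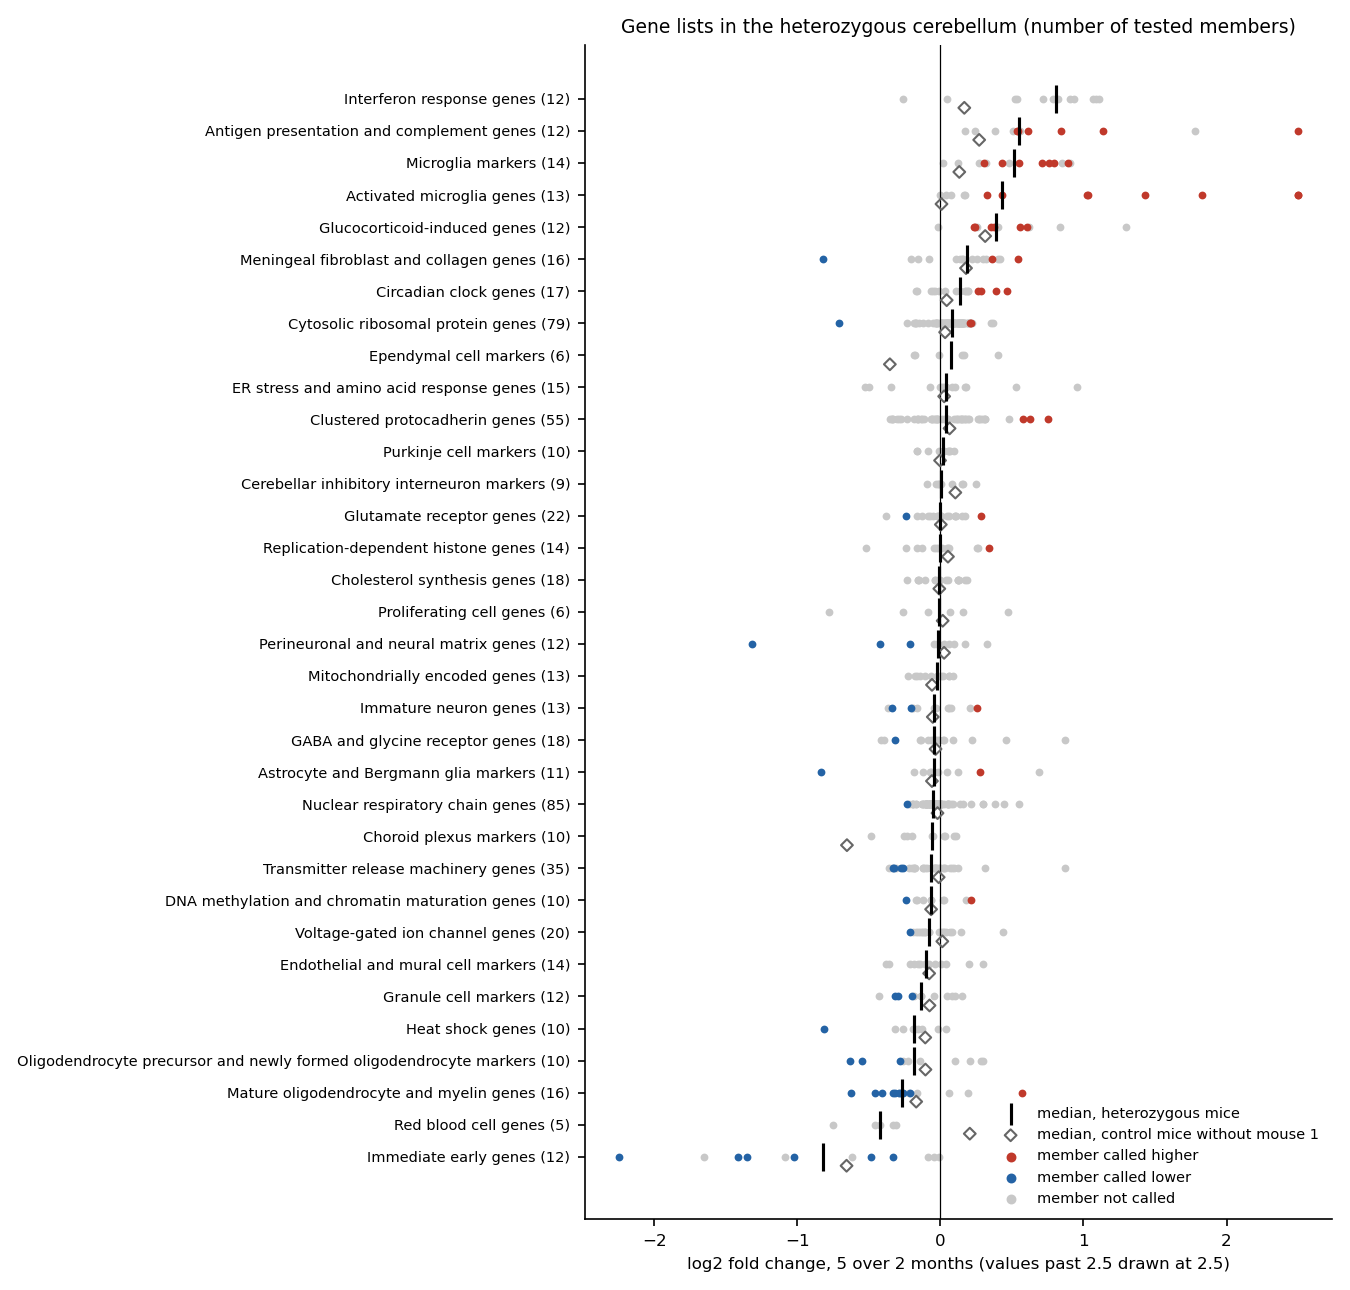
Log2 fold change between 5 and 2 months in heterozygous cerebellum for each tested member (points) of the lists with at least 5 tested members, sorted by the median (black bar); open diamonds are medians in control mice without control mouse 1. Microglia, complement and antigen presentation lists are at the top with most calls to the right, and immediate early and myelin genes are at the bottom with calls to the left; the interferon list has a high median and 0 calls.

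Genes of the circadian clock and genes induced by glucocorticoids rose in part. Of 17 clock genes 4 were called higher (Per3, Ciart, Bhlhe40 and Bhlhe41) and 0 lower, with a median of 0.14. The share called higher among all tested genes was 2.65%. Per3, a repressor of the clock, was at 88.0, 83.1 and 78.5 CPM at 2 months and 99.3, 109.7 and 117 CPM at 5 months (0.39 ± 0.059, adjusted p = 0.00038), and Ciart, a repressor associated with the clock, at 18.1, 19.1 and 16.8 CPM and 21.8, 25.1 and 27.4 CPM (0.47 ± 0.093, adjusted p = 0.00323). In both every older mouse was above every younger one. Bhlhe40 changed by 0.28 ± 0.049 (adjusted p = 0.000847) and Bhlhe41 by 0.26 ± 0.066 (adjusted p = 0.0215; lost without mouse 2, 6, 10 or 12), and 6 members were called without mouse 8, 0 in the fit of all 12 libraries and 4 with control mouse 1 left out of that fit. Of 12 genes induced by glucocorticoids, 6 were called higher (Sgk1, Tsc22d3, Sult1a1, Ddit4, Mt1 and Arrdc2) and 0 lower, with a median of 0.39. Tsc22d3, an anti-inflammatory leucine zipper protein, was at 133, 141 and 131 CPM and 163, 151 and 160.0 CPM (0.23 ± 0.046, adjusted p = 0.00296; 0.0528 without mouse 6). Ddit4, an inhibitor of mTOR signalling, was at 41.2, 42.5 and 51.8 CPM and 60.2, 56.5 and 59.3 CPM (0.38 ± 0.072, adjusted p = 0.00335), and Arrdc2 and Sult1a1 changed by 0.60 ± 0.11 and 0.56 ± 0.12. For these genes too the ages did not overlap. With non-robust dispersions 10 members of the list were called, in the fit of all 12 libraries 0, and with control mouse 1 left out of that fit 3. The labels give no hour of sampling, so a difference in the time of day between the ages and age itself cannot be told apart.

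The promoter of Ciart is shown because clock factors are known to bind the E-box CACGTG and this window holds it 3 times, in capitals, beginning 116, 58 and 44 bases before the start site, with no overlap among them or with the other patterns searched. It is the RefSeq promoter on GRCm38.p6 at chr3:95882179-95882478, minus strand.
Ciart: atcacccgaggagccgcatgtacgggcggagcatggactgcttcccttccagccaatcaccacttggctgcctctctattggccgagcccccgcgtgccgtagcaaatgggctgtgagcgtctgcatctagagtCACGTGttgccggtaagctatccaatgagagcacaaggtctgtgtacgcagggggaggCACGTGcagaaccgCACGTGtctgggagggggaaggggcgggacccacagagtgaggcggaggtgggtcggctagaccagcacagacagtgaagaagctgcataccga
The E-box occurs in 7.15% of all 32851 promoters. At least 1 promoter with it was found for 11.3% of the matched tested genes, 11.1% of those called higher and 9.80% of those called lower, and for 5 of the 15 clock genes with a promoter in the table.

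The extracellular matrix and cell adhesion genes changed in a few members. For the lists that follow, the shares called among all tested genes were 2.65% higher and 2.48% lower. Of 12 tested genes of the neural matrix 3 were called lower, Tnc, the proteoglycan Ncan and Tnr (tenascin R), with a list median of -0.017. Tnc, which immature and reactive glia secrete, was at 30.3, 21.9 and 30.7 CPM at 2 months and 9.41, 14.6 and 9.41 CPM at 5 months (-1.31 ± 0.22, adjusted p = 0.0243). The ages were far apart, yet the call was lost without mouse 2, 6, 8 or 12 (adjusted p from 0.0644 to 0.111). Ncan was at 23.9, 22.1 and 23.6 CPM and 16.5, 17.4 and 17.9 CPM (-0.42 ± 0.085, adjusted p = 0.00336), and Tnr changed by -0.21 ± 0.044 (adjusted p = 0.00454). The matrix list had 1 call without mouse 6 or without mouse 12. Of 55 clustered protocadherin genes, cell surface proteins that give neurons their identity codes, 3 of the gamma cluster were called higher (Pcdhgb6, Pcdhga9 and Pcdhga4) and 0 lower, with a median of 0.036. Pcdhgb6 was at 20.4, 18.0 and 20.8 CPM and 25.5, 33.9 and 29.1 CPM (0.58 ± 0.10, adjusted p = 0.000819); these genes share their 3-prime exons, so the split of reads among them is uncertain. Of 16 meningeal fibroblast and collagen genes, Col6a1 and Slc6a13 were called higher and Col3a1 lower, the last at 5.36, 7.41 and 5.57 CPM and 3.44, 3.24 and 3.58 CPM (-0.82 ± 0.18, adjusted p = 0.00651; 0.0524 without mouse 4), and without mouse 2, 6 or 12 neither of the other 2 was called. With DESeq2, non-robust dispersions or the length and GC offset, 1 member of this list was called higher. In the fit of all 12 libraries 0 were called in either direction, and with control mouse 1 left out of that fit 2 were called higher and 1 lower.

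Of 79 cytosolic ribosomal protein genes, 2 were called higher, among them Rps24, and Rpl21 was called lower, the median was 0.085 and 63 changes were above 0. Of all 16423 tested genes, 2.65% were called higher and 2.48% lower, and 8423 had changes above 0. The calls in the ribosomal protein and respiratory chain lists did not exceed these shares. In the shorter lists below 1 call alone exceeds them. Rpl21 has many processed copies in the genome, so its reads may be split with them. Of 85 nuclear genes of the respiratory chain, Atp5g1 was called lower (-0.23 ± 0.070, adjusted p = 0.0492; called without mouse 8 and not without any other mouse; the list had 4 calls without mouse 8 and 0 without mouse 2, 6 or 10), with a median of -0.048, and of 13 genes encoded in mitochondrial DNA 0 were called (median -0.021). Of 10 heat shock genes, the inducible chaperone Hspa1b was called lower, at 9.96, 7.57 and 9.12 CPM and 5.76, 5.00 and 4.53 CPM (-0.81 ± 0.15, adjusted p = 0.0019), and the list had 5 calls without mouse 8 and 2 without mouse 2. Of 13 immature neuron genes, Nnat was called higher and Gap43 and Marcksl1 lower (median -0.041), of 10 genes of DNA methylation and chromatin maturation Tet2 was called higher and Tet3 lower (median -0.066), and of 14 histone genes tested Hist1h1c was called higher (median -0.0015). Among these, only Rpl21 and Hspa1b were called whichever mouse was left out. With all 6 libraries and the filter, edgeR called no member among 14 endothelial and mural markers (median -0.10), 10 choroid plexus markers (-0.057), 6 ependymal markers (0.071), 5 red blood cell genes (-0.42), 18 cholesterol synthesis genes (-0.0081), 15 genes of the stress response of the endoplasmic reticulum and amino acid supply (0.038), 6 tested genes of proliferating cells (-0.011) and 3 tested markers of neurons outside the cerebellum (0.22). Some of these lists had calls under alternatives: without mouse 8, 3 endothelial and mural markers were called lower, among them Cldn5 (adjusted p = 0.00146) and Pecam1 (adjusted p = 0.0441), and with no filter 1. Of the choroid plexus markers, 1 was called lower with DESeq2, with no filter or without mouse 12. For the stress response genes 1 was called lower with DESeq2, with no filter or without mouse 4 or 12, and 2 with non-robust dispersions or without mouse 8. Without mouse 8 there was also 1 cholesterol synthesis gene called higher and 1 lower, 1 mitochondrially encoded gene called lower and 1 gene of proliferating cells called higher, the last also without mouse 6 or with no filter. In the fit of all 12 libraries 0 ribosomal protein, respiratory chain, immature neuron, histone and DNA methylation genes were called. With control mouse 1 left out of that fit, 3 ribosomal protein genes were called higher, 1 respiratory chain gene lower, 1 immature neuron gene higher and 3 lower, 1 histone gene higher, and 1 DNA methylation gene in each direction. The choroid plexus gene Ttr, a sign of how much plexus a dissection holds, was at 1997, 1676 and 1577 CPM and 1670.0, 1803 and 1874 CPM, overlapping between ages. Thy1 (0.028 ± 0.040), the Rosa26 transcript Gt(ROSA)26Sor (-0.12 ± 0.085) and the mouse C9orf72 gene, 3110043O21Rik (-0.16 ± 0.065), were not called.

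**Figure D3:**
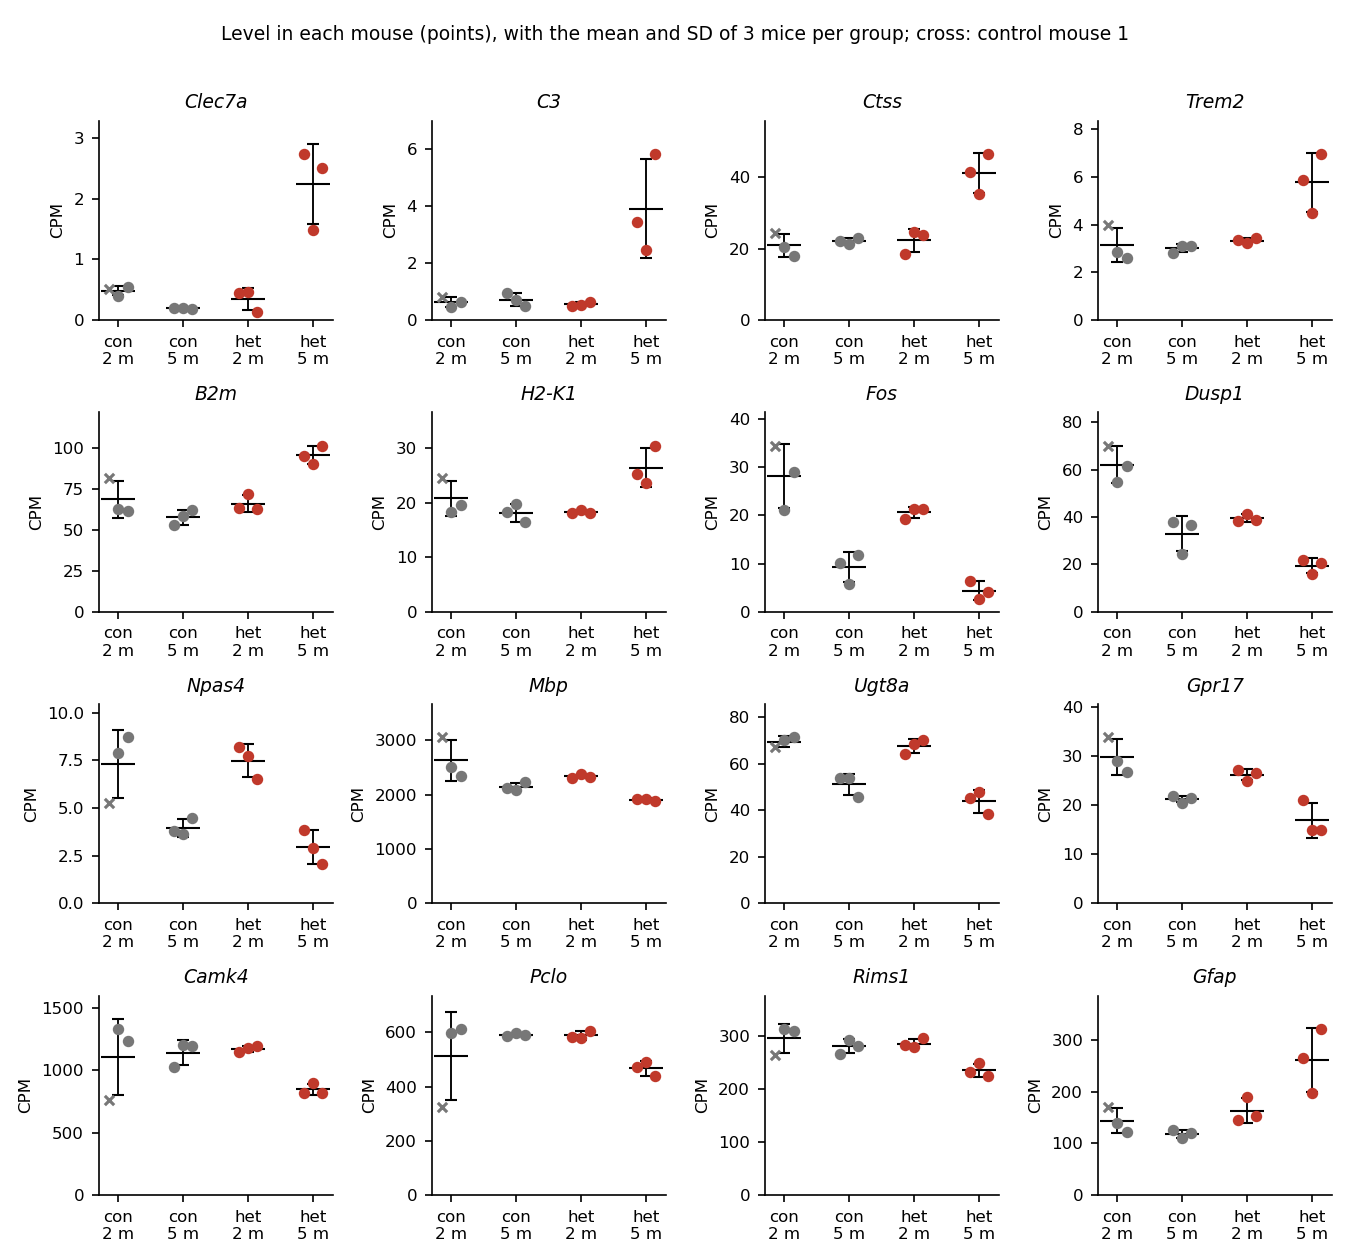
CPM of 16 genes in each of the 12 cerebellum libraries (points; control grey, heterozygous red, cross for control mouse 1), with the mean and SD of the 3 mice per group. Clec7a, C3, Ctss, Trem2, B2m, H2-K1 and Gfap have their highest mean in heterozygous mice at 5 months, Fos, Dusp1, Npas4, Mbp, Ugt8a and Gpr17 are lower at 5 months in both genotypes with control mouse 1 set aside, and Camk4, Pclo and Rims1 are lowest in heterozygous mice at 5 months with it set aside.

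Control mice of the same ages, which share no library with the heterozygous comparison, were used to ask which of these changes also occur without Cre. In the 6 control libraries edgeR called 0 genes higher (0.0%) and 0 lower (0.0%) at 5 months among 16216 tested, with 1135 genes at an unadjusted p under 0.05; DESeq2 called 14 higher and 19 lower. Without control mouse 1, 169 genes were called higher (1.02%) and 135 lower (0.817%) among 16529 tested, and 2288 had an unadjusted p under 0.05. Of the 435 genes called higher in heterozygous mice, 429 were tested in control mice, and 378 of these (88.1%) changed upward there too, against 50.1% of all tested genes; without control mouse 1 the share was 91.6%. Of the 408 called lower, 85.3% changed downward in control mice, against 49.9% of all tested genes, and 91.2% without control mouse 1. The sizes were smaller in control mice: over the genes called higher the median log2 fold change was 0.40 in heterozygous and 0.20 in control mice without mouse 1, and over those called lower -0.31 and -0.15. Without control mouse 1, 88 genes were called higher in both genotypes, which is 20.5% of the heterozygous and 52.4% of the control calls tested in both, and 73 were called lower in both, 17.9% and 54.5%. Since the heterozygous genes were picked for their size, a smaller size in the other genotype is partly set by that choice.

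**Figure D4:**
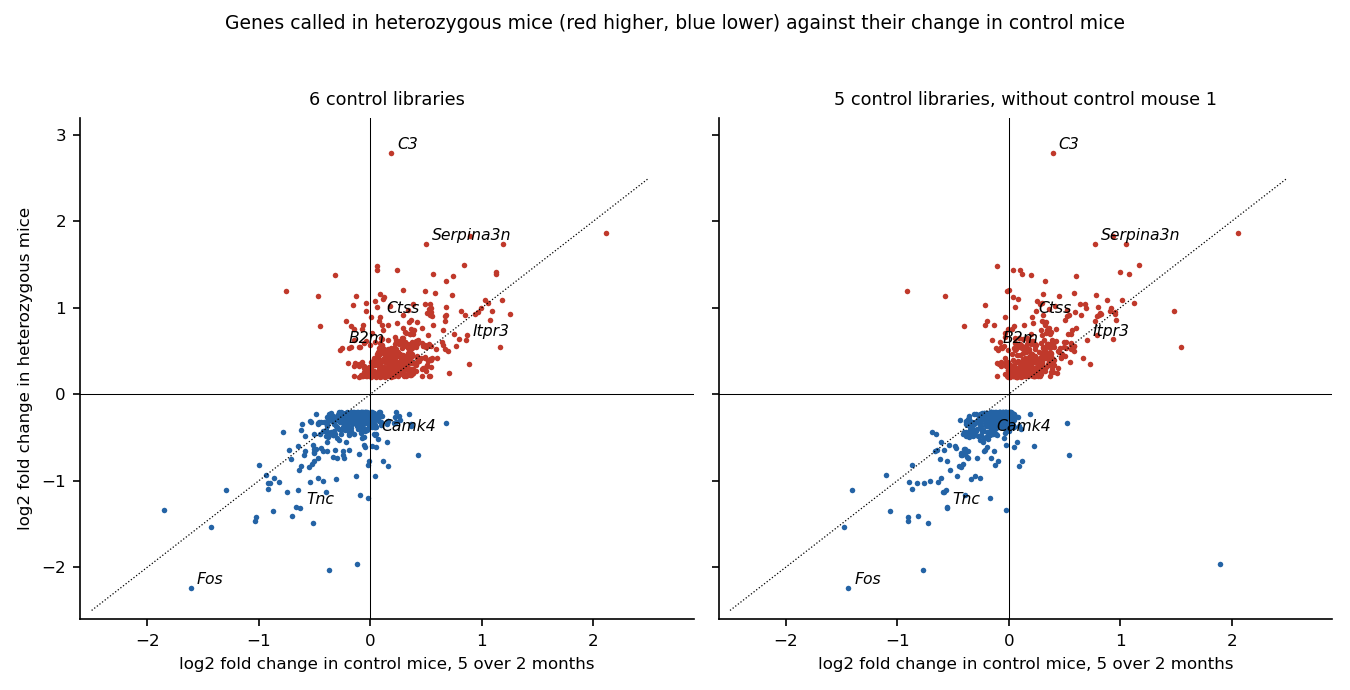
Log2 fold change between 5 and 2 months in heterozygous mice against that in control mice for the genes called in heterozygous mice (red higher, blue lower), with all 6 control libraries on the left and without control mouse 1 on the right; the dotted line marks equal change. Most points lie in the quadrants of equal direction, Itpr3 close to the dotted line, and C3 and B2m far from it, nearer to 0 on the control axis than on the heterozygous axis.

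The immediate early, myelin and glucocorticoid-induced genes had control medians in the direction of the heterozygous ones, with and without control mouse 1. Those of the microglial and antigen presentation genes were in that direction only without control mouse 1. Without it the control medians of all these lists were nearer to 0 than the heterozygous ones. A difference between lists was not tested. The median of the immediate early genes was -0.73 in control mice and -0.66 without mouse 1, next to -0.82 in heterozygous mice; that of myelin genes was -0.28 and -0.17, next to -0.27; and that of glucocorticoid-induced genes was 0.31 and 0.31, next to 0.39. Fos was at 34.5, 21.2 and 29.1 CPM in control mice of 2 months and 10.1, 5.72 and 11.9 CPM in those of 5 months, so that it was lower in the older mice of both genotypes. Ugt8a was at 67.1, 70.2 and 71.4 CPM and 53.7, 53.7 and 45.9 CPM, with no overlap either. Microglia markers had a control median of -0.0081, or 0.13 without mouse 1, next to 0.51 in heterozygous mice, activated microglia genes -0.11 and 0.0081 next to 0.43, and antigen presentation and complement genes -5e-05 and 0.27 next to 0.55. Ctss was at 24.3, 20.4 and 17.9 CPM and 22.2, 21.3 and 23.1 CPM in control mice, C3 at 0.796, 0.467 and 0.616 CPM and 0.943, 0.700 and 0.497 CPM, and B2m at 81.8, 62.9 and 61.7 CPM and 53.0, 58.2 and 62.0 CPM. For each of these 3 genes the heterozygous mice of 5 months were above every control mouse. With control mouse 1 left out, 4 immediate early genes (among them Egr4 and Npas4) and 5 myelin genes (among them Ugt8a) were called lower in control mice. In that fit 1 myelin and 1 glucocorticoid-induced gene were called higher, and 0 microglia markers and 0 activated microglia genes. Of the antigen presentation and complement genes 1, Serping1, was called higher there. It was at 18.6, 15.3 and 15.2 CPM and 21.1, 19.3 and 20.3 CPM in control mice, a change of 0.31 (adjusted p = 0.689), or 0.41 without mouse 1 (adjusted p = 0.0187). Lpl was at 1.01, 1.2 and 0.616 CPM and 1.35, 2.93 and 1.06 CPM, a change of 0.90 (adjusted p = 0.694), or 0.94 without mouse 1 (adjusted p = 0.36). Gfap was at 169, 139.5 and 122 CPM and 125, 111 and 119 CPM in control mice. Its control change was -0.28 (adjusted p = 0.689), or -0.15 without mouse 1 (adjusted p = 0.216). The edgeR interaction of Gfap, heterozygous minus control, was 0.97 (adjusted p = 0.922), or 0.84 without mouse 1 (adjusted p = 0.751). For Ctss, C3 and B2m the control ages overlapped with all 6 libraries, but without mouse 1 the older control mice were above the younger ones for Ctss, whose control change was 0.21 (adjusted p = 0.313), against 0.088 with it. Camk4 was at 763, 1332 and 1235 CPM and 1027, 1202 and 1195 CPM, where control mouse 1 was the lowest of all. Without it, both younger control mice were above all 3 older ones, and the change was -0.17 (adjusted p = 0.581), against 0.040 with it. Without control mouse 1 edgeR also called Neurod1 (-0.26, adjusted p = 7.12e-06), Gabra6 (-0.20, adjusted p = 0.000217) and Unc13a (-0.20, adjusted p = 0.000373) lower in control mice. With all 6 control libraries their changes were -0.15, -0.069 and -0.17, none called. The granule cell, transmitter release and clock lists had control medians of -0.075, -0.0115 and 0.044 without mouse 1, and -0.066, -0.071 and 0.080 with it. The choroid plexus list had a control median of -0.52, and -0.65 without mouse 1, with Ttr at 1489, 1901 and 1418 CPM and 1776, 588 and 1016 CPM, low in control mice 9 and 11; the part of plexus tissue in the control comparison was not tested.

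Whether the age change differs between genotypes was tested directly as an interaction over the 12 libraries. With edgeR, 0 of 16845 genes (0.0%) passed an adjusted p under 0.05, with 646 genes at an unadjusted p under 0.05, and DESeq2 found 4 (Zkscan3, B2m, Gm3294 and Clec7a). Without control mouse 1 edgeR found 3, B2m, Pclo and the predicted gene Gm3294; Zkscan3 and Gm3294 fall outside the rule for named genes and were named after their values were seen. B2m had an interaction of 0.79 (adjusted p = 0.459) on the log2 scale, heterozygous minus control, and 0.65 (adjusted p = 0.00234) without control mouse 1. Pclo had -0.54 (adjusted p = 0.922) and, without control mouse 1, -0.30 (adjusted p = 0.0398). Over the alternatives the smallest adjusted p of any gene ranged from 0.00234 to 0.978. For C3 the interaction was 2.60 (adjusted p = 0.922), for Ctss 0.80 (adjusted p = 0.922), for Camk4 -0.51 (adjusted p = 0.922), for Fos -0.63 (adjusted p = 0.922) and for Mbp 0.0057 (adjusted p = 0.997). Without control mouse 1 these were 2.39 (adjusted p = 0.543), 0.68 (adjusted p = 0.444), -0.30 (adjusted p = 0.558), -0.81 (adjusted p = 0.904) and -0.12 (adjusted p = 0.799), so that Camk4 was nearer to 0 and Mbp changed sign. With no filter on low counts, edgeR over all 12 libraries found B2m (adjusted p = 0.0222), Clec7a (adjusted p = 0.0222) and Gm3294 (adjusted p = 0.0326). A gene called in heterozygous and not in control mice is therefore not shown to differ between them. Exceptions are B2m, Pclo and Gm3294 without control mouse 1, and the genes of the DESeq2 fit and of the fit with no filter.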

How the data were processed

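RNA was sequenced from the cerebellum of 12 mice, 3 per genotype and age, and the 6 heterozygous libraries are the main subject. The authors trimmed reads with Trimmomatic 0.30, aligned them with HISAT2 2.0.1 and counted them per gene with HTSeq 0.6.1, and deposited raw counts, whose strand setting is not given in the sources used here. Counts on genes ranged from 12835400 to 16327811 per library, and gene types, lengths and positions came from GENCODE M21 on GRCm38. Genes were filtered with filterByExpr (count minimum 10, total 15), scaled by TMM and tested with edgeR 4.0.16 (R 4.3.3, limma 3.58.1) by a robust quasi-likelihood F test with Benjamini-Hochberg adjustment. Calls required an adjusted p below 0.05 together with a log2 fold change of more than 0.2 in either direction. Control mice were tested alone in the same way, and the difference in age change between genotypes was tested as a contrast over 12 libraries. Alternatives were DESeq2 1.42.0, its size factors in edgeR, no filter, non-robust dispersions, a length and GC offset, all 12 libraries in 1 fit, no fold change threshold and each library left out. A fit of 11 libraries without control mouse 1 was chosen after seeing the data. Genes were named by a rule: the 10 largest changes per direction among called genes whose ages do not overlap and whose mean is at least 1 CPM, up to 4 called members of each list with the smallest adjusted p, the genes the study names for the cerebellum, and the first 2 genes of each cell type list with the check genes. The members, the gene lists and this rule were chosen with earlier results of these data known. The code was tested on simulated data. Tables and figures were made with Python 3.11.15, pandas 2.3.3, numpy 2.4.6, scipy 1.17.1 and matplotlib 3.10.9.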

Additional observations from a re-analysis of the deposited data

Results flagged for a closer look

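The fitted age change of Clec7a was larger in heterozygous than in control mice. It had 15 counts in the 3 heterozygous mice of 2 months and 104 in those of 5 months, with every mouse of 5 months above those of 2 months. With the filter on low counts, Clec7a was tested only because of its counts in the heterozygous mice of 5 months. The direction of its difference is therefore partly set by the filter. In control mice, where it was under the filter on low counts and its age change was not tested, it had 7, 6 and 7 counts at 2 months and 3, 3 and 3 counts at 5 months, a scaled ratio of 0.403 (95% exact counting interval 0.162 to 0.926, which covers counting error only). The difference, heterozygous minus control, was 3.97 on the log2 scale, with an edgeR adjusted p of 0.459, and 3.93 with an adjusted p of 0.118 without control mouse 1. DESeq2 gave 4.03 with an adjusted p of 0.0351, and edgeR without a filter on low counts gave 3.97 with an adjusted p of 0.0222. These values rest on few counts in control mice. The counts were lower in every older control mouse, but a fall was not tested across mice, and no cause was tested.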

How the results depend on the processing

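Against 435 genes higher and 408 lower in heterozygous mice, DESeq2 called 268 higher, 1 fit of all 12 libraries called 74 and 61, and leaving out 1 heterozygous library gave 159 to 649 higher and 151 to 617 lower. In control mice, where edgeR called 0 and 0 (1135 genes had p below 0.05 before adjustment), no filter on low counts gave 8 higher and 9 lower, the length and GC offset 1 lower, DESeq2 14 and 19, the 12-library fit 15 and 12, the 11-library fit without control mouse 1, chosen after seeing the data, 100 and 74, and leaving out 1 library 0 to 169 and 0 to 135. For the difference between genotypes, edgeR called 0 (646 genes before adjustment), no filter gave 3, DESeq2 4 and leaving out 1 library 0 to 3. The cause of these differences was not tested. Among named genes, 1259 values under alternatives kept their side of the threshold, 191 lost it, 29 gained it, and 16 values of genes not called, such as Ttr, Folr1 and Chac1, changed sign. No paired analysis was possible because the heterozygous mice of 2 and 5 months are different animals with no replicate number in common. Depth limits genes such as Itgax, with 9 counts in all at 2 months.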

Other observations

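Some genes outside the gene lists, chosen after their values were seen, had small adjusted p values with edgeR in heterozygous mice. Kcnc4, a potassium channel subunit, was at 53.1, 57.3 and 54.5 CPM at 2 months and 80.0, 81.2 and 84.6 CPM at 5 months, a log2 fold change of 0.58 (adjusted p = 1.1e-06; 0.30 in control mice, and 0.36 without control mouse 1). Txnip, an inhibitor of thioredoxin, was at 26.2, 28.9 and 27.3 CPM and 44.6, 39.4 and 45.3 CPM, a change of 0.66 (adjusted p = 7.13e-06; 0.10 in control mice, and 0.17 without control mouse 1). Nrn1, the neuronal protein neuritin, was at 122, 109 and 114 CPM and 79.4, 68.1 and 67.9 CPM, a change of -0.68 (adjusted p = 1.32e-06; -0.51 in control mice, and -0.43 without control mouse 1). Ccnd1, cyclin D1, was at 29.4, 27.4 and 30.7 CPM and 17.6, 21.1 and 16.7 CPM, a change of -0.66 (adjusted p = 8e-05; -0.59 in control mice, and -0.36 without control mouse 1). In these 4 genes the ages did not overlap.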
